A study of Mus musculus with 24 samples.

Results

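A set of 10 genes better known from neurons, epithelium, leukocytes and the inner ear was followed through mouse intestinal stroma. The genes had been picked from the measured values for a large excess in CD31+ Rspo3+ cells: Nefl, Atp12a, Pld5, Acod1, Prf1, Clca2, Otoa, Pkhd1l1, Alox12e and Apba2. These 10 genes were among 54418 in the deposited count table, and all 10 passed the filter on low counts that left 19050 genes for testing, which a gene can do through its high group alone. The data are bulk RNA-seq of Epcam- CD45- cells from small intestine (SI) or colon, sorted by CD31 (the endothelial surface protein Pecam1) and by a GFP transgene for Rspo3, a secreted R-spondin that strengthens Wnt signalling. Each of the 8 groups (SI or colon, CD31+ or CD31-, Rspo3+ or Rspo3-) held 3 libraries, and all mice were 8 to 12 weeks old on a C57Bl6 background. No treatment or deletion is named in the labels, and they do not say how the transgene was built, nor whether each library is a different animal. The p-values therefore cover the variation among libraries, which may be technical.

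Lymphatic endothelial cells line the vessels that drain tissue fluid and, in the villi of the small intestine, absorbed fat, while blood endothelial cells line capillaries, arteries and veins. Both carry CD31, and lymphatic cells are set apart by the transcription factor Prox1, the hyaluronan receptor Lyve1 and the chemokine Ccl21a. The 10 genes have no shared biochemical role. Nefl encodes the light neurofilament chain of axons, Atp12a the catalytic subunit of the non-gastric proton-potassium pump, Pld5 a phospholipase D family protein that lacks the catalytic residues, and Acod1 the enzyme that makes itaconate in activated macrophages. Prf1 encodes perforin, the pore protein of cytotoxic lymphocytes, Clca2 a regulator of chloride conductance, Otoa otoancorin and Pkhd1l1 fibrocystin-L, both known from the inner ear, Alox12e an epidermal-type 12-lipoxygenase, and Apba2 an adaptor of the X11/Mint family that binds the amyloid precursor protein.

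The gates held in the RNA. Pecam1 was 421.2 ± 68.3 CPM (each gene's share of the TMM-scaled library total, mean ± SD, n = 3) in SI and 640.3 ± 46.5 in colon CD31+ Rspo3+ cells, and 25.3 or less on average in every CD31- group. Rspo3 averaged 384.5 and 372.9 CPM in the CD31+ Rspo3+ cells of SI and colon against 20.3 and 14.1 in CD31+ Rspo3- cells. The CD31+ Rspo3+ cells carried lymphatic markers: 15 lymphatic genes summed to 32440 to 36250 CPM in SI and 41620 to 52260 in colon, against 3511 to 6474 and 2193 to 2688 in CD31+ Rspo3- cells. The sum of 20 blood endothelial genes ran the other way, at 2970 to 3269 CPM in SI and 2434 to 2703 in colon against 19200 to 23400 and 21630 to 28330. Library totals ranged from 8462041 to 29214487 counts, and the third library of colon CD31- Rspo3+ cells stood apart, with a myeloid marker sum of 1366 CPM against 60.9 and 86.6 in the other libraries of its group. In bulk samples, fewer cells of a type and less RNA per cell cannot be told apart.

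By their levels, the genes fell into those high in both tissues, those high in SI, and 1 that was high in colon. In SI, 9 of the 10 were higher in every CD31+ Rspo3+ library than in every CD31+ Rspo3- library, where 15.7% of all genes tested were. In colon the count was 6 of 10, with 19.0% of all genes. Among Rspo3+ cells, all 10 were higher in every CD31+ than in every CD31- library in SI (22.8% of all genes) and 5 of 10 in colon (22.1% of all genes). Both contrasts use the CD31+ Rspo3+ libraries in which the genes were chosen for being high, so nothing is read from these counts and no test is given.

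**Figure D1:**
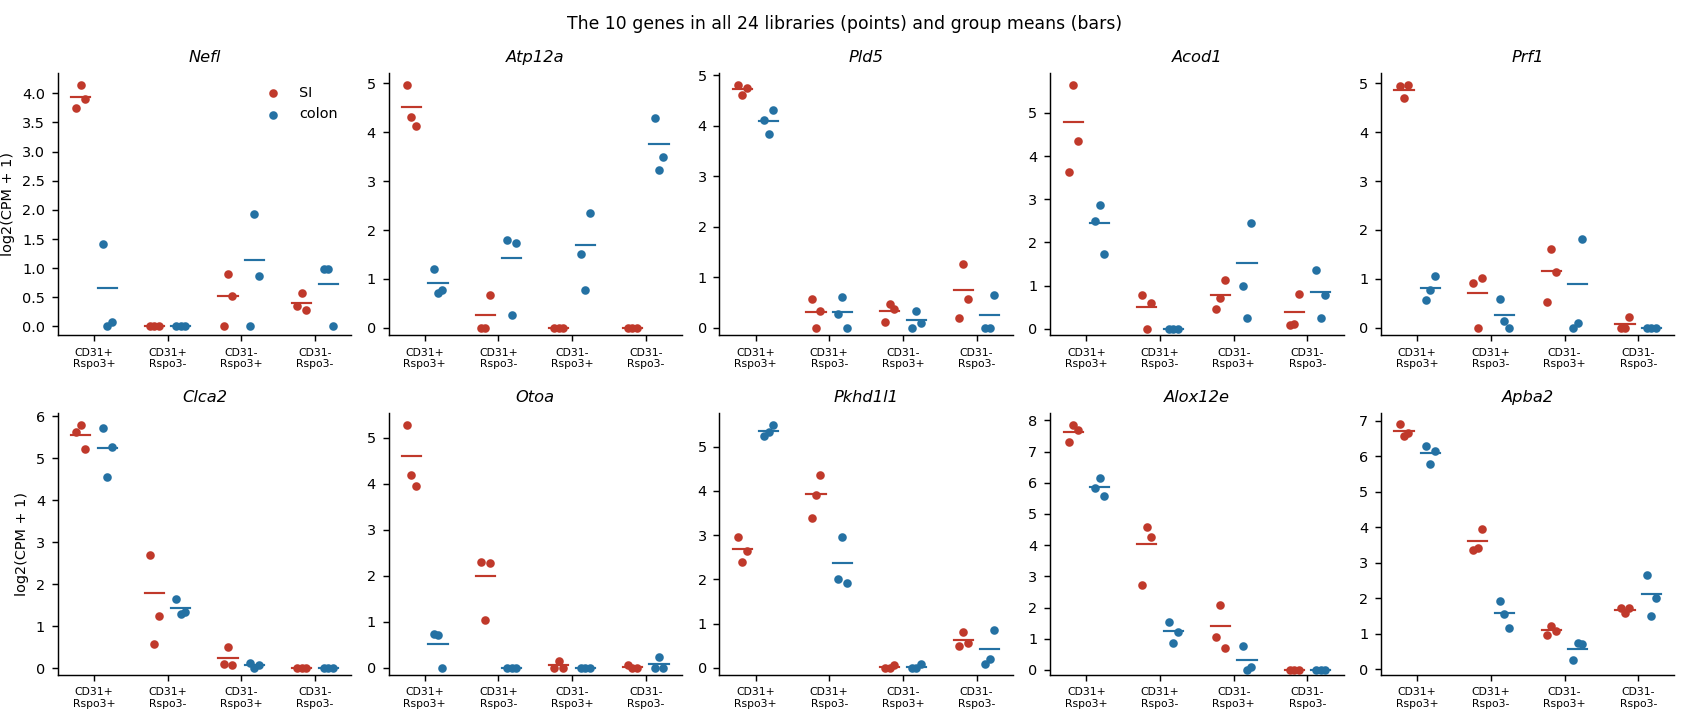
CPM of the 10 genes in all 24 libraries, as log2(CPM + 1) on the vertical axis, with the 4 sorted populations along the horizontal axis, SI in red and colon in blue. Points are libraries and bars are the log2(CPM + 1) of the group means. Pld5, Clca2, Alox12e and Apba2 are highest in the CD31+ Rspo3+ cells of both tissues; Nefl, Prf1 and Otoa are high in those of SI and average under 1 CPM in those of colon, and Pkhd1l1 is highest in those of colon.

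Alox12e was the most abundant of the 10 in SI. Alox12e (ENSMUSG00000018907, chr11:70315610-70322628, mm10, minus strand) measured 158.2, 231.6 and 203.9 CPM in the SI and 55.7, 69.8 and 46.8 in the colon CD31+ Rspo3+ libraries. In CD31+ Rspo3- cells it measured 5.55, 23.0 and 18.2 in SI and 1.90, 0.82 and 1.34 in colon, so the groups did not overlap in either tissue and the ratio of means was 12.7 in SI and 42.5 in colon. Its neighbour Alox12, the platelet-type 12-lipoxygenase, had the opposite pattern. A gap of 60.3 kb, with no other gene of the deposited counts in it, separates the 2 genes. Alox12 averaged 1.33 ± 1.41 CPM in SI and 3.01 ± 0.881 in colon CD31+ Rspo3+ cells against 37.8 ± 18.5 and 112.3 ± 19.3 in CD31+ Rspo3- cells (SD, n = 3 each). Alox12 was not among the chosen genes but was listed as a relative with earlier results of these data known. It fell by 4.98 ± 0.57 on the log2 scale in SI (edgeR adjusted p = 2.24e-06) and by 5.22 ± 0.56 in colon (edgeR adjusted p = 8.38e-07). The ± is an SE back-computed from the F statistic of the test. Of the reads of the pair, Alox12e held 98.6% to 99.8% in the SI and 93.3% to 96.9% in the colon CD31+ Rspo3+ libraries, but 8.67% to 50.4% and 0.669% to 1.49% in CD31+ Rspo3- libraries. No 31-base stretch of Alox12e was found in the transcripts of another gene (0 of 2882), and 1.63% of those of Alox12 were, so the 2 can be counted apart.

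The stretches upstream of the 2 start sites are shown because the levels of these neighbours ran in opposite directions. They come from RefSeq (GRCm38.p6), read 5′ to 3′ toward each gene, and stop where a GENCODE M21 exon begins, so the Alox12e stretch covers chr11:70322629-70322780 and that of Alox12 chr11:70255371-70255620, both on the minus strand. Capitals mark the GC box GGGCGG, searched on both strands:
Alox12e: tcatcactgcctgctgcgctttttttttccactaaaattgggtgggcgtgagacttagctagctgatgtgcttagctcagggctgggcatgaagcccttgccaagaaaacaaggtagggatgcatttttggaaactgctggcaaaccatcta
Alox12: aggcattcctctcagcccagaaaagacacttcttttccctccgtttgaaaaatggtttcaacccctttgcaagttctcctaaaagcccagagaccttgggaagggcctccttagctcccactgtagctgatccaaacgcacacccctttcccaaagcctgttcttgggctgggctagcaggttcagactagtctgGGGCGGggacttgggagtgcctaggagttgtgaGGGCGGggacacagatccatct
In the 250 bases before its RefSeq start, Alox12 holds the GC box at 55 and 22 bases before the start. Alox12e holds 1 at 42 bases before its RefSeq start, inside the first GENCODE exon and therefore not printed. The longest run the 2 windows share on the same strand is 9 bases. GC boxes are common: 32.7% of the 32851 windows of all genes hold 1. Of the 10 genes, 7 had such a window (8 windows in all), and the other motifs searched on both strands were found only in Acod1, which holds the nuclear receptor motif AGGTCA (14% of all windows) and the TATA box TATAAA (12.4%). The forkhead motif GTAAACA (3.17% of all windows), the GATA motif AGATAA (9.99%), the AP-1 motif TGACTCA (4.46%) and the E-box CACGTG (6.02%) were in none of the 8. A match or its absence describes these letters only.

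**Figure D2:**
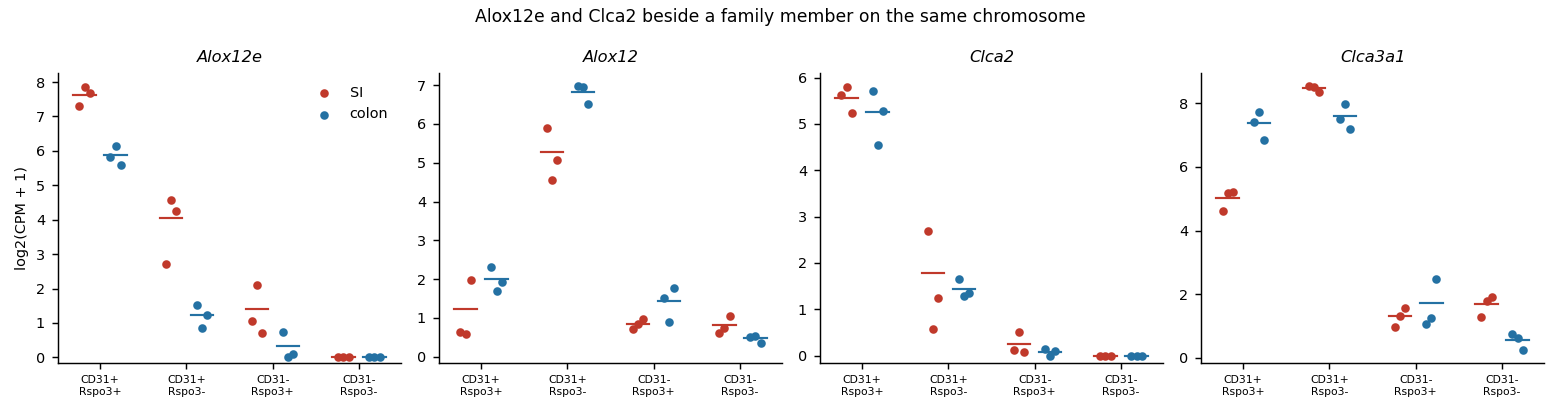
CPM of Alox12e, Alox12, Clca2 and Clca3a1 as log2(CPM + 1) on the vertical axis, by sorted population, SI in red and colon in blue; points are libraries and bars the log2(CPM + 1) of group means. Alox12 is low where Alox12e is high in both tissues, while Clca3a1 is lower in SI CD31+ Rspo3+ than in SI CD31+ Rspo3- cells and overlaps between these groups in colon.

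Apba2, Clca2 and Pld5 were high in both tissues. Apba2 (ENSMUSG00000030519, chr7:64501706-64753878) measured 118.4, 93.2 and 100.5 CPM in SI and 77.6, 54.3 and 69.7 in colon CD31+ Rspo3+ cells, against group means of 11.2 ± 2.94 and 1.99 ± 0.774 in CD31+ Rspo3- cells, ratios of 9.31 and 33.7. Clca2 (ENSMUSG00000036960, chr3:145070263-145099443) measured 48.1, 54.8 and 36.4 CPM in SI and 51.5, 22.4 and 37.8 in colon, with no count in any CD31- Rspo3- library of either tissue. Its CD31+ Rspo3- libraries held 5.49, 0.484 and 1.38 in SI, so the ratio of 18.9 became 49.8 without the first of them, and the colon ratio was 21.7. Pld5 (ENSMUSG00000055214, chr1:175962306-176275312) measured 26.8, 23.5 and 25.8 CPM in SI and 16.2, 13.2 and 18.8 in colon, and at most 1.40 in any library of the other 6 groups. The Pld5 ratios were 104.2 in SI and 66.1 in colon, over denominators near 0: without the first SI CD31+ Rspo3- library, which leaves 3 counts, the ratio was 221.2 (exact 95% interval 75.5 to 1074, counting error only), without the second it was 69.5, and in colon it was 44.0 without the third and 161.1 without the second. Pld5 had the smallest spread of the 10 in SI, with a coefficient of variation of 6.72%.

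Among CD31+ Rspo3+ cells, Nefl, Prf1, Otoa and Atp12a were high in SI and at or below 1.68 CPM in colon. Nefl (ENSMUSG00000022055, chr14:68083863-68089095) measured 12.5, 16.6 and 13.9 CPM in SI CD31+ Rspo3+ cells and 0 in all 6 CD31+ Rspo3- libraries of both tissues, which makes it at least 205.0-fold higher in SI when the empty group is given a floor of 3 counts in all (at least 124.2 without the first and 136.1 without the second CD31+ Rspo3- library). In colon CD31+ Rspo3+ cells it measured 1.68, 0 and 0.0542, so 1 library held nearly all of it, and without that library both groups were at or under the floor. Nefl shares 1108 exonic bases with Nefm on the opposite strand, 32.2% of its 31-base stretches, and the library method does not mark strand; Nefm itself averaged 3.97 ± 1.09 CPM in SI CD31+ Rspo3+ cells (edgeR adjusted p = 0.084 against CD31+ Rspo3-). The 12 enteric neuron markers summed to 19.4 to 30.7 CPM in SI CD31+ Rspo3+ cells, 109.2 to 157.7 in SI CD31+ Rspo3- cells and 207.2 to 352.8 in colon CD31+ Rspo3+ cells. In the same order of groups, 5, 4 and 4 of the 12 stayed below 1 CPM in every library, with Elavl3 and Chat among them each time. The part of neuronal RNA in the Nefl level was not tested.

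Prf1 (ENSMUSG00000037202, chr10:61297833-61304680) measured 29.9, 24.8 and 30.0 CPM in SI and 0.481, 0.703 and 1.08 in colon CD31+ Rspo3+ cells. In SI CD31+ Rspo3- cells it measured 0.885, 0 and 1.03, a ratio of 44.2 (29.4 without the second of these libraries). In colon the groups overlapped and the ratio was 3.81, or 2.54 without the third CD31+ Rspo3- library and 16.9 without the first, which leaves 2 counts (exact 95% interval 4.37 to 144.3, counting error only). The 14 cytotoxic lymphocyte markers summed to 6.15, 19.6 and 12.2 CPM in the SI CD31+ Rspo3+ libraries and to 10.4 to 22.4 in SI CD31+ Rspo3- cells. The part of lymphocyte RNA in the Prf1 level was not tested. Otoa (ENSMUSG00000034990, chr7:121081650-121163097) measured 38.1, 17.3 and 14.6 CPM in SI CD31+ Rspo3+ cells against 3.95, 1.04 and 3.88 in CD31+ Rspo3- cells, a ratio of 7.89. In colon it was 0.661, 0.639 and 0 CPM against no count. Its SI level had the second widest spread of the 10, with a coefficient of variation of 55.2%.

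Atp12a (ENSMUSG00000022229, chr14:56365068-56388550) measured 30.1, 18.8 and 16.6 CPM in SI CD31+ Rspo3+ cells, and of the other 9 SI libraries only 1 held any, at 0.603. The ratio to CD31+ Rspo3- cells was 108.5. With that library left out its group had no count and the gene was at least 228.4-fold higher, and without either of the others the ratio was 72.4. In colon the gene was highest in CD31- Rspo3- cells, at 18.7, 8.40 and 10.3 CPM, and 1.32, 0.639 and 0.704 in CD31+ Rspo3+ cells. Those colon CD31- Rspo3- cells also held epithelial marker sums of 1476 to 5576 CPM (12 genes) against 78.8 to 396.7 in colon CD31+ Rspo3+ cells. In SI, which has another epithelium, CD31- Rspo3- cells held sums of 7549 to 14820 CPM and no Atp12a count. The part of epithelial RNA in the Atp12a level was not tested. The gene shares 557 exonic bases with the antisense gene Gm10873, which averaged 0.0395 CPM in SI CD31+ Rspo3+ cells.

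Acod1 (ENSMUSG00000022126, chr14:103046977-103056573) was high in both tissues but least even. It measured 11.4, 48.7 and 19.2 CPM in SI and 4.63, 6.33 and 2.33 in colon CD31+ Rspo3+ cells, with 0.408 ± 0.366 CPM in SI and no count in colon CD31+ Rspo3- cells. The SI ratio was 64.7 (37.4 without the second CD31+ Rspo3+ library, and 102.2 and 43.1 without the first and second CD31+ Rspo3- libraries), and in colon it was at least 94.4-fold higher (60.2 without the third CD31+ Rspo3- library). Colon CD31- Rspo3+ libraries held 0.975, 0.197 and 4.49 CPM of Acod1 and overlapped the colon CD31+ Rspo3+ libraries, with a ratio of means of 2.35. The SI library with the highest Acod1 also had the highest myeloid marker sum of its group, 136.4 against 54.4 and 53.5 CPM (12 genes). SI CD31+ Rspo3- libraries held sums of 58.4, 122.8 and 42.6 CPM with Acod1 at 0.708, 0 and 0.517 CPM. The third colon CD31- Rspo3+ library, with a sum of 1366 CPM, held the 4.49 CPM of Acod1. The part of myeloid RNA in the Acod1 level was not tested.

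Pkhd1l1 (ENSMUSG00000038725, chr15:44457494-44601369) went against the label in SI. It measured 6.75, 4.23 and 5.22 CPM in CD31+ Rspo3+ and 9.38, 14 and 19.4 in CD31+ Rspo3- cells of SI. By CPM every CD31+ Rspo3- library was higher and the ratio of means was 0.378, so it was 2.64 times higher in Rspo3- cells. In TPM, which corrects for transcript length, the groups overlapped, at 2.12, 0.5 and 0.586 against 3.04, 1.81 and 4.39. In colon it measured 36.6, 39.5 and 44.1 CPM in CD31+ Rspo3+ and 3.04, 6.71 and 2.76 in CD31+ Rspo3- cells, a ratio of 9.61. It was nearly absent from CD31- cells, with at most 0.812 CPM in any library.

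Between the tissues, 8 of the 10 genes were higher in every SI than in every colon CD31+ Rspo3+ library, as were 12.2% of all genes tested, 1 (Pkhd1l1) was lower in every SI library (11.7% of all genes), and Clca2 overlapped. The ratios of SI to colon were 53.8 for Otoa, 37.4 for Prf1, 24.7 for Nefl, 24.6 for Atp12a, 5.97 for Acod1, 3.45 for Alox12e, 1.58 for Pld5 and 1.55 for Apba2, and Pkhd1l1 was 7.42 times higher in colon. Single libraries moved 3 of these ratios by 1.5 times or more. Nefl stood at 483.0 without the first colon library, which leaves 1 count (exact 95% interval 86.4 to 19110, counting error only). Acod1 stood at 3.45 without the second SI library. Otoa stood at 35.9 without the third colon library, which held no Otoa count. Since the choice drew on the rankings of each tissue, these are descriptions with no test. On the TPM scale, which corrects for transcript length, Alox12e (132.8 ± 25.2) and Apba2 (97.1 ± 11.9) led in SI. Clca2, Prf1, Acod1, Otoa, Pld5, Atp12a and Nefl followed between 19.8 and 6.57, each overlapping the next in that order, and Pkhd1l1 came last at 1.07 ± 0.909. In colon Apba2 (63.0 ± 15.9) stood above Alox12e (36.5 ± 5.81), then came Clca2, Pkhd1l1, Pld5 and Acod1 between 15.7 and 2.55, of which Clca2 overlapped Pkhd1l1 and Pld5, and Prf1, Otoa, Atp12a and Nefl were all below 0.5 TPM on average and overlapped.

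**Figure D3:**
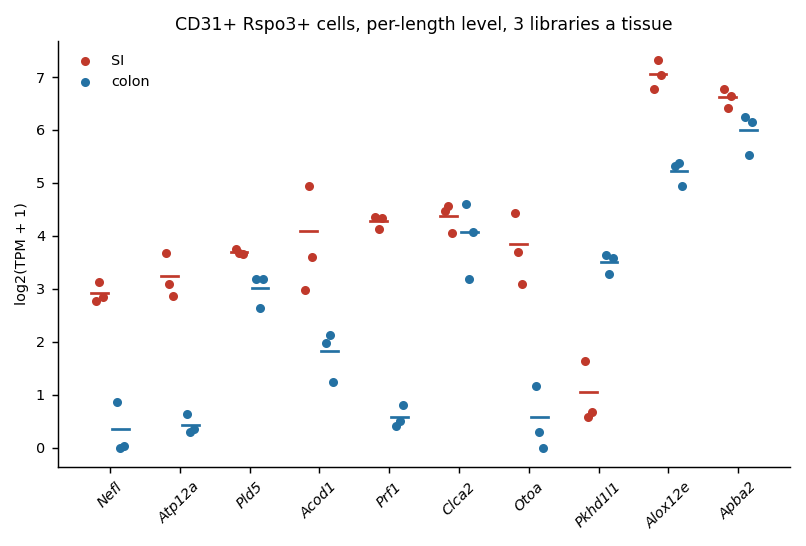
TPM of the 10 genes in CD31+ Rspo3+ cells as log2(TPM + 1) on the vertical axis, 3 SI libraries in red and 3 colon libraries in blue for each gene along the horizontal axis; bars are the log2(TPM + 1) of the group means. Pkhd1l1 alone is higher in every colon library, and Clca2 overlaps between the tissues.

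CD31- cells gave a comparison that shares no library with the cells in which the genes were picked, though the fit took its spread from all 24 libraries. Several of the 10 had almost no counts in CD31- cells, such as Atp12a with 0 and Otoa with 1 in the SI CD31- Rspo3- and 0 and 2 in the CD31- Rspo3+ group, so the counts of calls say nothing of the 10 as a set. Of the genes called in CD31- cells, Clca2 and Pkhd1l1 passed the filter on low counts only through their CD31+ groups. In SI, 3 genes were higher in CD31- Rspo3+ than in CD31- Rspo3- cells (16.1% of all genes were) and 1 was lower (14.3% of all genes), by edgeR's quasi-likelihood test at an adjusted p under 0.05. Alox12e rose from no count to 1.09, 3.27 and 0.632 CPM, at least 33.0-fold against the floor (edgeR adjusted p = 0.000914). Clca2, from no count to 0.0808, 0.429 and 0.0486 CPM (11 counts in all), had an edgeR adjusted p of 0.0417 and Prf1, from 0, 0 and 0.162 to 0.444, 2.04 and 1.21 CPM, one of 0.0436. Both calls were lost without the first or the second CD31- Rspo3- or the second CD31- Rspo3+ library, that of Clca2 also without the third CD31- Rspo3- and that of Prf1 without the third CD31- Rspo3+ library; their adjusted p ran from 0.0159 to 0.237 and from 0.0165 to 0.147 over the alternatives. Pkhd1l1 fell from 0.415, 0.744 and 0.487 to 0, 0 and 0.0486 CPM (log2 change -4.58 ± 0.96, edgeR adjusted p = 0.00114). The SI CD31- Rspo3+ level was 0.841% of the CD31+ Rspo3+ level for Alox12e, 0.401% for Clca2 and 4.36% for Prf1. The 15 lymphatic markers ran from 0.861% to 47.3%, with a median of 1.71%, and their sum was 533.6 to 994.9 CPM in the SI CD31- Rspo3+ against 138.4 to 203.5 in the CD31- Rspo3- libraries; the part of lymphatic RNA in these calls was not tested.

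In colon CD31- cells, 1 gene was higher (4.8% of all genes) and 2 were lower in Rspo3+ cells (4.34% of all genes). Apba2 fell from 5.32, 1.83 and 3.01 to 0.195, 0.656 and 0.632 CPM, by 2.68 ± 0.41 on the log2 scale (edgeR adjusted p = 0.000294). In SI CD31- cells Apba2 measured 1.14 ± 0.187 against 2.20 ± 0.187 CPM with an edgeR adjusted p of 0.0532. So in CD31- cells the Rspo3+ side of Apba2 was the lower one, whereas in CD31+ cells it was the higher one. Pkhd1l1 fell from 0.0619, 0.147 and 0.812 to 0, 0 and 0.0632 CPM (edgeR adjusted p = 0.0407), a call lost without the third CD31- Rspo3- or the first or second CD31- Rspo3+ library, with adjusted p from 0.0198 to 0.376 over the alternatives. Prf1 was at 0, 0.0656 and 2.53 CPM against no count (edgeR adjusted p = 0.0463), and its value came from the third CD31- Rspo3+ library, whose cytotoxic marker sum was 91.4 against 5.95 and 4.33 CPM. Without that library, or without any 1 of the CD31- Rspo3- libraries, the Prf1 call was lost, and its adjusted p ran from 0.00222 to 0.568. Atp12a measured 2.23 ± 1.73 against 12.5 ± 5.48 CPM with an edgeR adjusted p of 0.116.

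**Figure D4:**
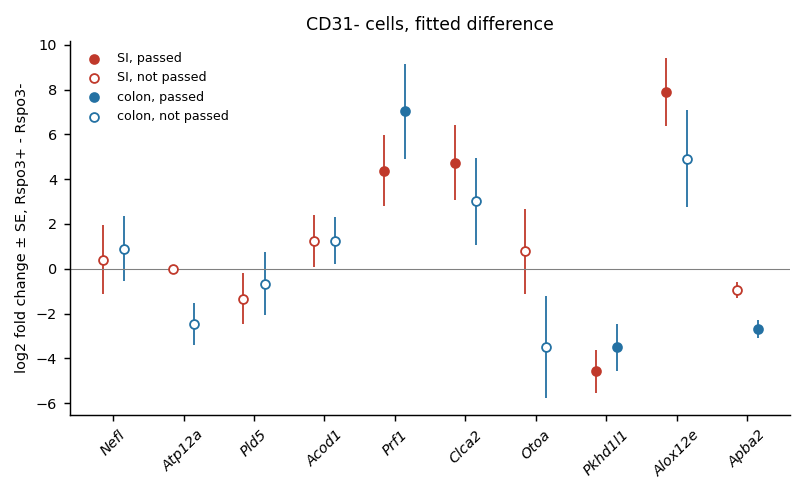
Fitted log2 fold change of Rspo3+ over Rspo3- in CD31- cells on the vertical axis, for the 10 genes along the horizontal axis, SI in red and colon in blue. Bars are the SE, back-computed from the F statistic of the test. Filled points passed at an adjusted p under 0.05: Alox12e, Clca2 and Prf1 higher and Pkhd1l1 lower in SI, and Prf1 higher and Apba2 and Pkhd1l1 lower in colon; fits against groups with no count depend on the prior count, and the point of Atp12a in SI, with no count in either group, sits at 0 without an SE.

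Relatives of the 10, listed by family or role with earlier results of these data known, were tested in the contrast that chose the genes. Of 86 listed, 71 could be tested: in SI 3 were higher and 11 lower in CD31+ Rspo3+ than in CD31+ Rspo3- cells, and 9.23% and 10.8% of all genes were. In colon 7 were higher and 11 lower, and 9.52% and 13.6% of all genes were. The median log2 change of the relatives was 0.02 in SI and -0.11 in colon, beside 0.0 and -0.05 over all genes.

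Around Clca2, 0 of 6 chloride channel regulators were higher in either tissue and 2 were lower in SI. Clca3a1 measured 23.3, 35.7 and 36.3 CPM in SI CD31+ Rspo3+ against 369.9, 368.6 and 326.6 in CD31+ Rspo3- cells (log2 change -3.49 ± 0.41, edgeR adjusted p = 2.92e-06), while in colon it was 164.3 ± 47.4 against 192.5 ± 53.7 (edgeR adjusted p = 0.719). It shares 40.6% of its 31-base stretches with other genes, mainly Clca3a2, so the 2 are hard to count apart; the other gene lower in SI was Clca3a2 (edgeR adjusted p = 0.0276), with its call lost without any 1 CD31+ Rspo3+ library (0.0649 to 0.095). Around Alox12e, 5 of 7 lipoxygenase genes could be tested and Alox12 was the only call in each tissue. Around Pld5, none of 4 phospholipase D genes passed in either tissue (edgeR adjusted p from 0.626 to 0.996 in SI for Pld1, Pld2 and Pld3, with 36.9, 50.4 and 66.2 CPM in SI CD31+ Rspo3+ cells).

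Around Prf1, of 12 granule genes tested, 1 was higher and 3 lower in SI, and 1 higher and 2 lower in colon. Srgn, the proteoglycan that holds granule contents, averaged 24.5 CPM in SI and 33.8 in colon CD31+ Rspo3+ cells against 320.7 and 453.3 (edgeR adjusted p = 0.000264 and 0.000215), and Ctsc, which activates granzymes, 14.5 and 21 against 38.0 and 54.7 (edgeR adjusted p = 0.0416 and 0.0362). The Ctsc call was lost in SI without the second CD31+ Rspo3- or the first or the third CD31+ Rspo3+ library (adjusted p 0.136 to 0.216) and in colon without the third CD31+ Rspo3- or the second or the third CD31+ Rspo3+ library (0.0961 to 0.25), and in both with only the compared libraries fitted (0.0811 and 0.0676). Unc13d, a granule priming factor, was called in SI (edgeR adjusted p = 0.0445) and lost with any 1 of the 6 libraries left out or with no filter on low counts (0.0641 to 0.14). The 1 gene higher in both was the lysosomal membrane gene Lamp1, at 848.2 and 850.8 against 597.0 and 580.0 CPM (edgeR adjusted p = 0.0117 and 0.00576), and its SI call was lost without the third CD31+ Rspo3+ library, with no filter on low counts and with only the compared libraries fitted (0.0521, 0.0527 and 0.0638). Around Acod1, the 14 citrate cycle and itaconate-related genes gave no call in SI and 1 in colon, Suclg1, at 60.3 against 42.6 CPM (edgeR adjusted p = 0.0407), lost without any of 5 of the 6 libraries, the third CD31+ Rspo3- library aside (0.0735 to 0.121), and also with DESeq2's size factors (0.0516) or no filter on low counts (0.1).

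Around Nefl, of 6 intermediate filament genes tested, the stem cell filament gene Nes was lower in both tissues, at 4.14 against 52.0 CPM in SI and 3.54 against 70.5 in colon (edgeR adjusted p = 1.46e-05 and 2.31e-06), and Vim was higher in colon, at 1737 against 749.6 CPM (edgeR adjusted p = 0.000504). Around Atp12a, 7 ion pump subunits were tested, of which 2 were lower in SI, and 2 were higher and 4 lower in colon. The beta subunit Atp1b3 averaged 161.6 against 388.7 CPM in SI and 131.0 against 376.0 in colon (edgeR adjusted p = 1.15e-06 and 1.24e-07), and Atp1b2 fell too (edgeR adjusted p = 4.11e-07 and 2.74e-06). Among those higher in colon, Atp1a4 averaged 0.481 CPM (edgeR adjusted p = 0.029), and its call was lost without any 1 CD31+ Rspo3- library or the first or the third CD31+ Rspo3+ library (adjusted p 0.0564 to 0.0774). Around Otoa and Pkhd1l1, none of the 3 genes tested in each list passed in either tissue.

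Apba2 had partners on both sides. Of 11 tested, 2 were higher and 2 lower in SI, and 2 higher and 3 lower in colon. Among those higher was Aplp2, an amyloid precursor relative, at 2490 against 1441 CPM in SI and 2243 against 1483 in colon (edgeR adjusted p = 0.000912 and 0.00806). Lower in both were Aplp1, at 3.24 against 24.6 and 6.43 against 46.7 CPM (edgeR adjusted p = 0.00458 and 0.00452; 0.0851 in SI with only the compared libraries fitted), and the adaptor Lin7a, at 0.595 against 3.76 and 1.24 against 6.81 (edgeR adjusted p = 0.00188 and 0.00176). Lin7b, lower in colon (edgeR adjusted p = 0.0419), passed in 2 of 10 alternatives (0.0159 to 0.23) and was lost without the first or the third CD31+ Rspo3- or any 1 CD31+ Rspo3+ library. The precursor App itself measured 1196 against 1104 CPM in SI (edgeR adjusted p = 0.659).

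Across all 24 libraries, the genes most like the members were found by Pearson's r of log2 CPM, as a description; the libraries share tissue and sort, so r is high for many genes. Alox12e was most like Ly6g5c (r = 0.978) and Smad1 (0.97), Apba2 most like Prkcq (0.972), Clca2 most like the pseudogene Olfr1372-ps1 (0.974), Pkhd1l1 most like Pkig (0.938) and Pld5 most like Kcnmb2 (0.917). The leading genes of 4 others had lower r: Otoa with Pkd2l1 (0.894), Acod1 with Slc4a11 (0.884) and Cnr2 (0.883), Prf1 with Crybb1 (0.865) and Cnr2 (0.855), and Atp12a with Fdft1 (0.836), Rasgef1b (0.833) and Idi1 (0.833). Fdft1 and Idi1 are enzymes of cholesterol synthesis. Fdft1 averaged 80.8 CPM in SI CD31+ Rspo3+ against 23.8 in SI CD31+ Rspo3- cells and Idi1 123.4 against 43.3, and in colon CD31+ Rspo3+ cells they averaged 33.3 and 38.0. Pkd2l1 ran like Otoa in level too, at 49.4 CPM in SI and 0.656 in colon CD31+ Rspo3+ cells. Against the lymphatic markers, Alox12e and Clca2 correlated most with Prox1 (r = 0.958 and 0.956), and Nefl and Atp12a least (0.236 and 0.307).

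Gene neighbourhoods were looked at last. Pald1, the nearest tested protein-coding gene after Prf1 at 15 kb, averaged 491.1 ± 36.3 CPM in SI and 426.1 ± 35.6 in colon CD31+ Rspo3+ cells against 116.1 ± 26.8 and 77.2 ± 8.92 in CD31+ Rspo3- cells, so Pald1 was high in both tissues where Prf1 was high in SI alone. Kctd12, 64.3 kb before Acod1, averaged 214.1 ± 38.4 and 123.3 ± 15.5 against 44.9 ± 15.3 and 74.0 ± 14.3 CPM. These 2 neighbours were singled out after their values were seen.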

How the data were processed

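RNA of 24 libraries, 3 per group, was read from 2 deposited tables. Per the labels' protocols, a Qiagen kit and full-length SMART-Seq v4 chemistry were used. Per the submitters' processing notes, Salmon 1.3.0, R 4.0.1 and build mm10 were used, with no annotation release or filter named. The authors' deposited table of estimated counts holds integers for each gene. The deposited log2 values are log2(TPM + 1), which add up to 1000000 TPM in each library. Columns were matched to groups by tissue, CD31 and reporter signs; libraries 1 to 3 follow column order. GENCODE M21 gave names for 54166 of 54418 IDs (99.5%).

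The counts were fitted with edgeR 4.0.16 (quasi-likelihood F test, TMM, filterByExpr with minimum count 10 and total 15), all libraries in a single model with a mean for each group, and p-values adjusted by Benjamini-Hochberg over 19050 genes. DESeq2 1.42.0 and limma voom 3.58.1 were alternatives. A group of libraries without counts was set to a floor of 3 counts over the group for folds, which covers counting error only. The genes, their relatives and the marker lists were chosen with earlier results of these data known. The text names all 10 members, relatives that passed (up to 3 a list) or reached 10 CPM, and for likeness the leading genes of each member. Atp1a4 and Lin7b, which also passed, were named after their values were seen. Some genes that this rule would name are not reported here.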

Additional observations from a re-analysis of the deposited data

Results flagged for a closer look

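By CPM, Pkhd1l1 ran in opposite directions in the endothelium of the 2 tissues. The ratio of CD31+ Rspo3+ to CD31+ Rspo3- cells was 0.378 in small intestine, where every Rspo3+ library was lower. In colon it was 9.61, and every Rspo3+ library was higher. By TPM the small intestine groups overlapped, with means of 1.07 ± 0.909 and 3.08 ± 1.29. The difference between the tissues was not tested, since the gene was chosen on these libraries.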

How the results depend on the processing

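No paired analysis was possible because the table's columns carry no replicate number of the labels. Of the members in CD31- cells of small intestine, 4 passed, and 3 to 5 with the other scalings, tools and filters. Leaving out 1 library gave 2 to 4, and Alox12e and Pkhd1l1 passed in each of these runs. In CD31- cells of colon, 3 passed, 5 passed with DESeq2, and 0 passed when edgeR was fitted on only the compared libraries, where 2 had an unadjusted p under 0.05 and limma voom on all libraries called 2; leaving out 1 library gave 1 to 2, with Apba2 in each. DESeq2's size factors shifted the log2 changes in CD31- cells of small intestine by -0.122. Calls of relatives ran from 10 to 16 in small intestine and from 13 to 19 in colon, against 14 and 18. Most members had under 100 counts in each CD31- group, which limits those comparisons, and the folds of Nefl, Atp12a, Pld5 and Acod1 in CD31+ cells of small intestine rest on denominators near 0. Leaving out libraries for the ratios of small intestine to colon was chosen after seeing the data.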
